A study of Mus musculus with 38 samples.

Results

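The 74 genes described here encode proteins of the mitochondrial ribosome. They are the genes whose platform symbol is Mrpl or Mrps followed by a number, 45 of the large subunit and 29 of the small subunit, among 18300 genes with a symbol on the array. They were read by 80 of 25344 spots. Of the 78 protein-coding genes that RefSeq lists under such names, 4 lie outside this rule, because the platform gives 3 of them an older symbol and Mrpl41 was not among its symbols. Every one of the 74 had a value in all 5 hypomorphic embryos of each tissue, so none was lost to a filter.

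The mitochondrial ribosome translates the few messenger RNAs encoded by mitochondrial DNA, which all specify subunits of the respiratory chain and ATP synthase. Its ribosomal RNAs are mitochondrial, whereas its proteins are encoded in the nucleus, made in the cytosol and imported. Some of these proteins descend from those of the bacterial ribosome and others are specific to mitochondria, and the loss of single ones impairs respiration.

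The study asked how expression differs in mouse embryos with hypomorphic Dnmt3b, a DNA methyltransferase that sets new methylation marks and whose human counterpart is mutated in ICF syndrome, an inherited immunodeficiency with unstable centromeres. RNA of 5 hypomorphic thymuses at 18.5 days post coitum, labelled m3/m24 on all but 3 of their 18 arrays, was compared with 1 pool of RNA from 5 wild-type thymuses. RNA of fibroblasts from 5 hypomorphic embryos at 12.5 days post coitum, whose labels give a number but no alleles, was compared on 20 arrays with 1 pool from 5 wild-type fibroblast samples. All embryos were 129SvJae x C57BL/6 hybrids, and their sexes are not stated. Each array carried hypomorph RNA in one dye and pool RNA in the other, with dyes exchanged on 9 of the 18 thymus arrays and 10 of the 20 fibroblast arrays. Thymus embryo 5 had 2 arrays, and every other embryo of either tissue had 4. Every value below is the log2 ratio of hypomorph over pool of an embryo, averaged over both dye orientations of median-centred arrays. Because RNA came from whole thymus or from a culture, fewer cells of a type and less RNA per cell cannot be told apart.

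The hypomorph-over-pool direction is assumed here and not stated. Values at the upper bound of the scale (16.61) occurred only where the hypomorph was in Cy5, and values at the lower bound only where it was in Cy3. This switch cannot tell hypomorph over pool from the reverse, because spots without signal in Cy3 or in Cy5 would each give it. The reverse direction would turn the sign of every ratio. Arrays of one orientation in a tissue correlated positively across spots (0.202 or more). After removal of the dye profile, array 4 of fibroblast embryo 4 was the single array that correlated negatively, at -0.279 on average, with the other arrays of its embryo, and results that rest on it are given without it as well. Array 4 of fibroblast embryo 1 correlated at 0.879 with an array of embryo 2. Titles of that array and of all arrays of fibroblast embryos 2 and 3 begin with AYX or AYY. All other arrays, those of thymus included, have titles that begin with AYT. What these letters stand for is not stated. Dnmt3b averaged -0.08 ± 0.15 in thymus and 0.11 ± 0.11 in fibroblasts (SD, n = 5 each; limma adjusted p = 0.918 and 0.359), and since the place of its single probe in the mutated gene is unknown, this is no check of the labels. A ratio carries no level, so the labelled tissues could not be checked by how strongly markers of thymocytes or fibroblasts were expressed.

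Promoters were available from RefSeq for 65 of the 74 genes (GRCm38.p6, 250 bases before to 50 after the start). The 3 below are shown because Mrpl55 is the gene that passed the test of the difference between tissues, Mrps16 had the largest such difference, and Mrps5 was the 1 member above the pool in all 5 thymus embryos. Capitals mark motif matches on either strand. RefSeq lists 2 promoters for Mrps16, and the first is shown. Mrpl55 lies at chr11:59202236-59202535 on the plus strand, Mrps16 at chr14:20393441-20393740 on the minus strand and Mrps5 at chr2:127587176-127587475 on the plus strand, each position being that of the 300-base window printed 5′ to 3′ along the gene.
Mrpl55: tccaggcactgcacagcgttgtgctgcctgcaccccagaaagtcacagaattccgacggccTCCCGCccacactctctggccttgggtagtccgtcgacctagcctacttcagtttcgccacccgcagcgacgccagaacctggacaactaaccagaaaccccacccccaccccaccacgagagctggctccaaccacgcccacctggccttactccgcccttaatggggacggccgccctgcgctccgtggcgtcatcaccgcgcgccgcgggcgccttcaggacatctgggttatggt
Mrps16: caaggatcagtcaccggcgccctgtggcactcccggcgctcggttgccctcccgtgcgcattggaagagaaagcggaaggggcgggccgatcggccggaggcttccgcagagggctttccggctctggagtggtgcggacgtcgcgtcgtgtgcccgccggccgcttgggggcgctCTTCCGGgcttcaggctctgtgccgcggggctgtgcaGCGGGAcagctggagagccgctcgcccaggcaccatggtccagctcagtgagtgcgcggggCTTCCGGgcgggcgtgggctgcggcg
Mrps5: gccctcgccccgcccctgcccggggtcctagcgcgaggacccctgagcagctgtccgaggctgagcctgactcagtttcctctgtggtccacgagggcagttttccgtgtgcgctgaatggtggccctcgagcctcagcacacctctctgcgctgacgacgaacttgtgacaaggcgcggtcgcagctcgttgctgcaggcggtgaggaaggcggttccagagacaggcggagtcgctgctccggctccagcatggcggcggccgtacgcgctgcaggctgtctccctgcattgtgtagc

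Methylation by Dnmt3b falls mainly on CG pairs, and these promoters are rich in them. The Mrpl55 window holds 24 CG pairs, that of Mrps16 36 and that of Mrps5 27. The median of the 65 members was 21 (quartiles 15 and 25), against 7 (quartiles 3 and 21) over 27025 genes with a promoter. Those 27025 were not limited to protein-coding genes or to genes on the array. CG pairs were counted in the first promoter listed for a gene. Whether the CG count is particular to this family was not tested. The Mrpl55 window holds 1 match to the E2F motif TCCCGC, starting 189 bases before the gene's start, and none of the other motifs searched. The Mrps16 window holds the ETS motif CCGGAAG on its antisense strand on both sides of the start and an antisense E2F match between them, while the Mrps5 window holds none.

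Over the family, the ETS motif stood in 24 of 65 promoters (36.9%, against 9.93% of all genes) and the YY1 motif AAGATGGC in 11 (16.9%, against 3.19%). The E2F motif stood in 22 (33.8%, against 22.0%) and the 10-base consensus of NRF1 in 3 (4.62%, against 1.07%). A gene was counted if any of its listed promoters held the motif. No motif contains another. The ETS, E2F and NRF1 motifs hold CG pairs themselves, and their shares were not adjusted for the CG content of the promoters. The median of the 24 members with the ETS motif was -0.09 in thymus and 0.17 in fibroblasts, and that of the 41 without it -0.06 in thymus and 0.20 in fibroblasts. A match is a run of letters and not a measured site, and DNA methylation was not analysed here.

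In hypomorphic thymus most of the family lay slightly below the wild-type pool. The mean ratio was below 0 for 55 of the 74 genes, against 45.1% of all 21949 features tested. The median gene stood at -0.07, against 0.01 over all features. Embryo by embryo the family median was -0.01, -0.04, -0.04, -0.13 and -0.09 in thymus embryos 1 to 5, so that embryos 4 and 5 lay furthest from the pool. The large subunit and the small subunit both had a median of -0.07. No member passed the test in thymus (limma, Benjamini-Hochberg adjusted p under 0.05), where 0.0228% of all features passed, 0.0182% as higher and 0.00456% as lower. At an unadjusted p under 0.05, 14 members were lower, 18.9% of the family against 4.8% of all features, and 1 was higher (Mrps5), against 2.69%. In all 5 embryos 18 members lay below the pool (24.3%, against 4.84% of all features) and 1 above it (1.35%, against 3.53%). The thymus shift was not seen in both dye orientations alike, since the family median was below 0 on 9 of 9 arrays with the hypomorph in Cy3 and on 4 of 9 with it in Cy5. With the Cy5 arrays alone the family median was -0.02 and 41 of 74 members lay below 0.

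In hypomorphic fibroblasts the family lay above the wild-type pool. The mean was above 0 for 65 of the 74 genes, against 49.1% of all 22025 features, and below 0 for 9, against 50.9%, and the median gene stood at 0.18, against 0.00. The family median was 0.32, 0.32, 0.21, 0.08 and -0.01 in fibroblast embryos 1 to 5. Embryos 1 to 3 were thus well above the pool, embryo 4 slightly above and embryo 5 level with it. Both subunits again had the same median, 0.18. No member passed in fibroblasts, where 0.00454% of all features passed. At an unadjusted p under 0.05, 32 members were higher (43.2%, against 8.22% of all features) and none was lower, against 7.82%. Above the pool in all 5 embryos were 18 members (24.3%, against 7.8%), and below it in all 5 there was none, against 9.0%. The family median was above 0 on 9 of 10 arrays with the hypomorph in Cy5, array 4 of embryo 4 being the exception at -0.18, and on 8 of 10 in Cy3, where both arrays of embryo 5 were below at -0.20 and -0.12. Without array 4 of embryo 4 the family median was 0.20.

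**Figure D1:**
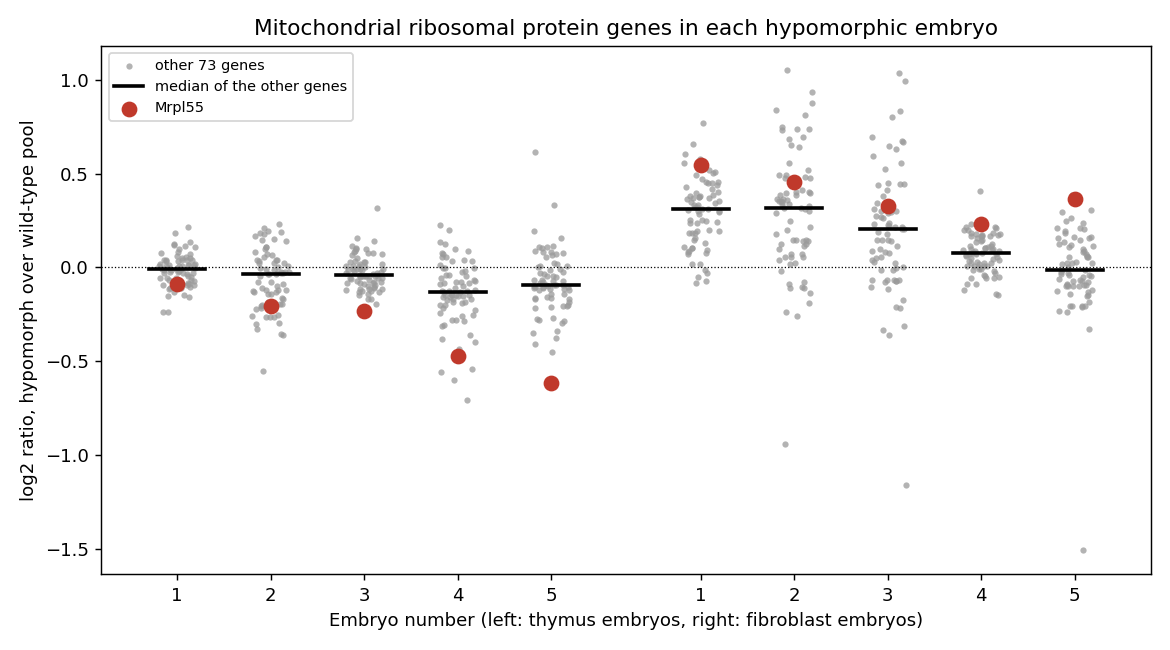
Log2 ratio of hypomorph over wild-type pool (vertical axis) for each of the 74 genes in thymus embryos 1 to 5 (left) and fibroblast embryos 1 to 5 (right). Grey points are the 73 genes other than Mrpl55, black bars their median and red points Mrpl55, which lies below that median in all 5 thymus embryos and above it in all 5 fibroblast embryos.

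Mrpl55 encodes a protein of the large subunit that is specific to mitochondria and has no counterpart in bacteria. Its log2 ratio was -0.09, -0.20, -0.23, -0.47 and -0.62 in thymus embryos 1 to 5, against the wild-type thymus pool. In fibroblast embryos 1 to 5 it was 0.54, 0.45, 0.33, 0.23 and 0.37, against the fibroblast pool. All thymus embryos were below the pool, all fibroblast embryos were above it, and the tissues did not overlap. The mean was -0.32 ± 0.21 in thymus (SD, n = 5; 1.25-fold lower than the pool; limma adjusted p = 0.362), the lowest of the 74 genes. It was 0.38 ± 0.12 in fibroblasts (SD, n = 5; 1.31-fold higher than the pool; limma adjusted p = 0.128), the eighth highest, though with the smallest adjusted p of the family. Neither tissue passed on its own. With Mrpl40, Mrps16 and Mrps24 it was 1 of 4 members (5.41% of the 74) below the pool in all thymus embryos and above it in all fibroblast embryos, against 0.618% of all features.

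The difference between the tissues did pass for Mrpl55. Thymus minus fibroblasts was -0.71 (95% interval -0.94 to -0.48, limma adjusted p = 0.032 over 21852 features), which is a ratio 1.63-fold lower in thymus. It was the only member among the 74 that passed, and 0.412% of all features passed. The call was close to the threshold. Without thymus embryo 1, 2, 3, 4 or 5 the adjusted p was 0.0699, 0.0608, 0.0657, 0.0825 and 0.0848 in that order, and without fibroblast embryo 1 or 2 it was 0.103 and 0.0874, while the difference stayed between -0.76 and -0.63. Leaving out fibroblast embryo 3, 4 or 5 kept the call (0.0493, 0.014 and 0.0403). Tissue, age, culture and pool cannot be told apart in this difference, and the spread of each pool is not in its test.

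Mrpl55 lay further from the pool than the family's median in every thymus embryo and in every fibroblast embryo. It stood below the median of the others by 0.08, 0.17, 0.19, 0.34 and 0.52 in thymus embryos 1 to 5. In thymus embryos 3 and 5 no other member was lower, in embryo 4 there were 4 lower and in embryos 1 and 2 there were 14 each. In fibroblast embryos 1 to 5 it lay above the median of the others by 0.23, 0.14, 0.12, 0.16 and 0.38. There 7, 20, 21, 1 and 1 of the 73 were higher than it. So in thymus it was in the lower part of the family, and at its low edge in embryos 3 and 5. In fibroblasts it was in the upper part, close to the upper edge in embryos 4 and 5. Its small spread in fibroblasts (SD 0.12, against a median SD of 0.18 over the family) came with a value in embryo 5 (0.37) that did not follow the family's -0.01.

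The arrays behind these values were not uniform for Mrpl55. With the hypomorph in Cy3 it was below 0 on 9 of 9 thymus arrays (-0.88 to -0.21), and with it in Cy5 on 6 of 9 (-0.57 to 0.15), the exceptions being both Cy5 arrays of embryo 1 and one of embryo 3. In fibroblasts it was above 0 on 10 of 10 arrays with the hypomorph in Cy3 (0.22 to 0.60) and on 9 of 10 in Cy5, array 4 of embryo 4 again standing apart at -0.33. Without that array its fibroblast mean was 0.43 and passed (limma adjusted p = 0.0367), and the difference was -0.75 (adjusted p = 0.0104). With the Cy5 arrays alone the difference was -0.64 and did not pass (adjusted p = 0.127). With the Cy3 arrays alone it was -0.77 (adjusted p = 0.0161). Over all alternatives tried the adjusted p ranged from 1.93e-05 to 0.127 for the difference, from 0.00074 to 0.47 in fibroblasts and from 0.0163 to 0.928 in thymus. With the Cy5 arrays alone 7 other members were lower than Mrpl55 in thymus. The lowest Mrpl55 value, that of thymus embryo 5, rested on 2 arrays, at -0.35 in Cy5 and -0.88 in Cy3. After removal of the dye profile these 2 arrays correlated at 0.0731 across spots. Without thymus embryo 5 the thymus mean of Mrpl55 was -0.25 (limma adjusted p = 0.928).

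**Figure D2:**
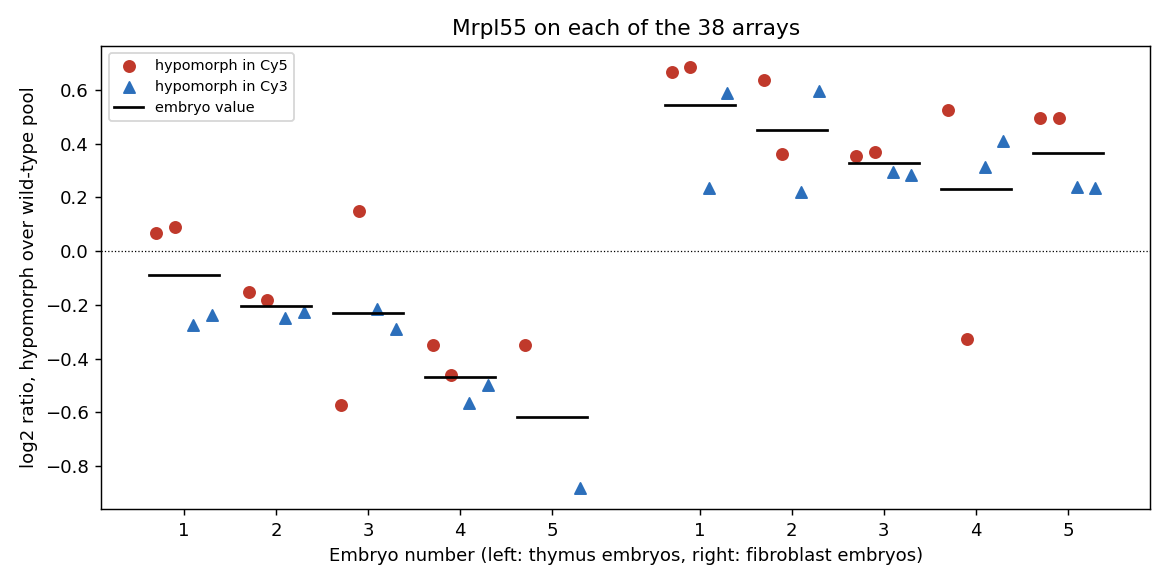
Log2 ratio of Mrpl55, hypomorph over pool (vertical axis), on each of the 38 arrays by embryo, thymus left and fibroblasts right, with red circles for the hypomorph in Cy5, blue triangles for Cy3 and black bars for the embryo value. Of the 20 fibroblast arrays 1 lies below 0, at -0.33, and of the 18 thymus arrays 3 lie above it.

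The neighbours of Mrpl55 on chromosome 11 had smaller differences between the tissues. The nearest measured gene, the long non-coding RNA 2610507I01Rik, runs in the opposite direction, and its start lies 54 bases from that of Mrpl55. It averaged -0.12 ± 0.12 in thymus and -0.03 ± 0.09 in fibroblasts (SD, n = 5 each), a difference of -0.08 (limma adjusted p = 0.626). Guk1, which makes GDP from GMP, had a difference of -0.09, Iba57, an iron-sulphur cluster factor of mitochondria, one of 0.11, and Arf1, a GTPase of the Golgi, one of -0.17. 2310033P09Rik stood at -0.16 and the signalling ligand Wnt3a at 0.07. None of the 6 passed in either tissue or in the difference.

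Across the whole family the difference ran the same way as for Mrpl55. Thymus minus fibroblasts was below 0 for 66 of the 74 genes, against 46.8% of all features, and its median was -0.24, against 0.01. At an unadjusted p under 0.05, 42 members were lower in thymus (56.8%, against 8.57% of all features) and none was higher, against 6.84%. Of these 42, Mrpl55 was the 1 that passed after adjustment. For 10 members every thymus embryo lay below every fibroblast embryo (13.5%, against 2.04% of all features), and for none the reverse, against 1.91%. These 10, named here after their values were seen, were Mrpl11, Mrpl24, Mrpl27, Mrpl34, Mrpl40, Mrpl55, Mrps11, Mrps16, Mrps24 and Mrps36. The protein of Mrps36 is now placed in the oxoglutarate dehydrogenase complex and not in the ribosome. Without array 4 of fibroblast embryo 4, 6 members passed as lower, Mrpl11, Mrpl24, Mrpl27, Mrpl55, Mrps16 and Mrps24, and over all features 1.34% passed, against 0.412% with the array.

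**Figure D3:**
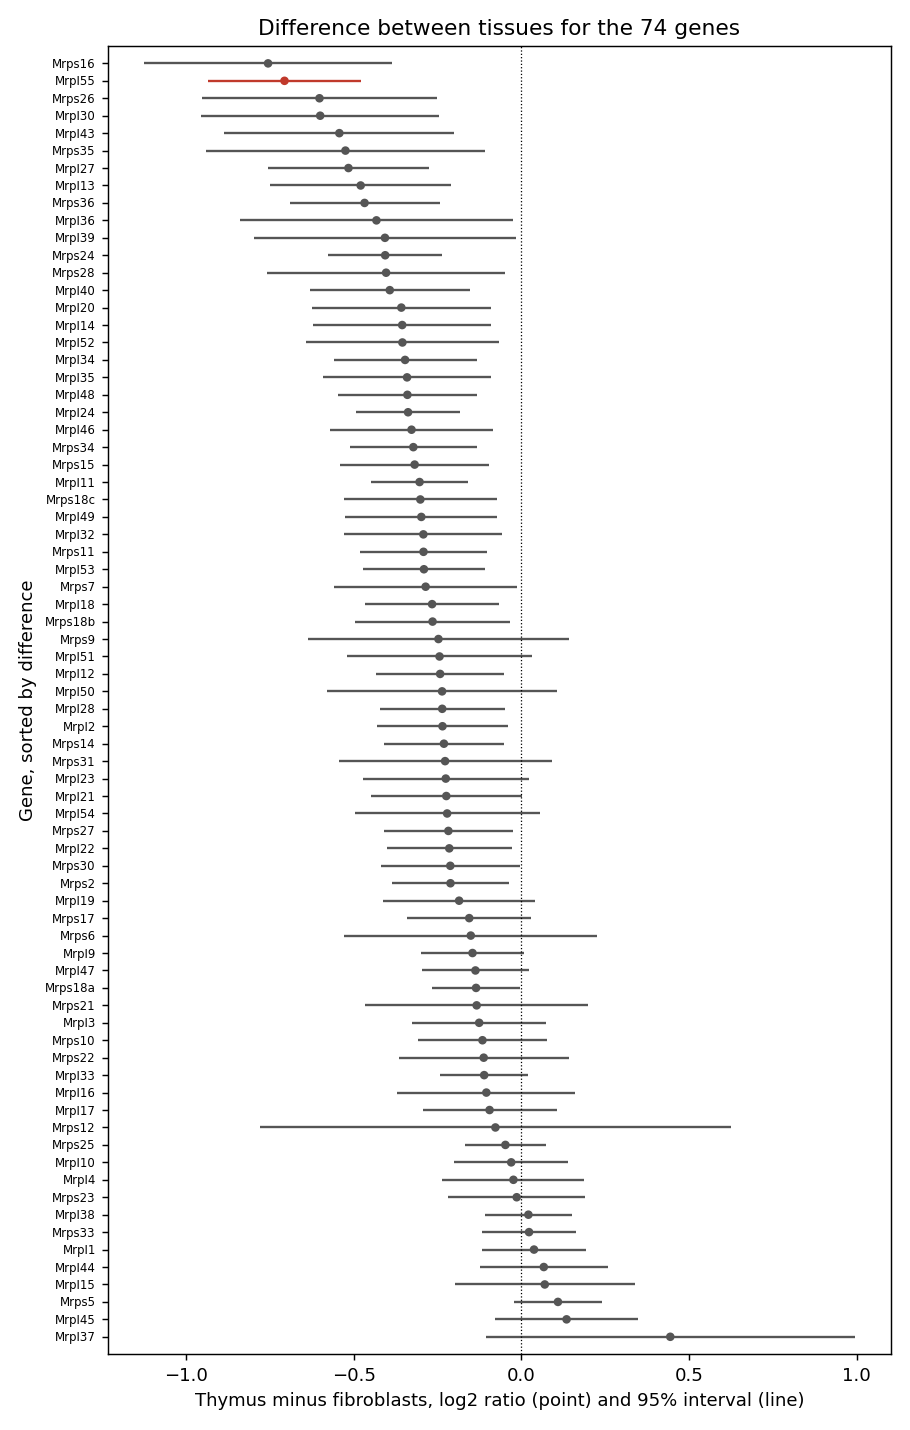
Thymus minus fibroblasts of the log2 ratio for the 74 genes (horizontal axis), sorted, with points for the difference and lines for its 95% interval from limma. Of the points 66 lie below 0, and Mrpl55 (red, -0.71) is second to Mrps16 (-0.76) but has the narrower interval.

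Of the small subunit, Mrps16, which has a bacterial counterpart and whose human form is mutated in a respiratory chain deficiency, came nearest to Mrpl55. It was at -0.16, -0.30, -0.02, -0.70 and -0.38 in thymus embryos 1 to 5, and at 0.60, 0.75, 0.70, 0.02 and 0.16 in fibroblast embryos 1 to 5. The tissues did not overlap, but fibroblast embryos 4 and 5 lay far below the other 3, and array 4 of embryo 4 stood at -0.64. Its mean was -0.31 ± 0.26 in thymus and 0.45 ± 0.33 in fibroblasts (SD, n = 5 each), and the difference of -0.76 did not pass (95% interval -1.13 to -0.39, limma adjusted p = 0.0804). Mrps24, a protein at the entry of the messenger RNA channel, is described after its values were seen and was more even, with -0.05, -0.27, -0.05, -0.26 and -0.08 in thymus and 0.37, 0.14, 0.14, 0.41 and 0.26 in fibroblasts. Its difference of -0.41 narrowly missed the threshold (adjusted p = 0.0529), and its thymus mean turned to 0.14 with the Cy5 arrays alone. Mrps26, specific to mitochondria, had a difference of -0.60 (adjusted p = 0.115), with fibroblast values of 0.56, 0.81 and 0.67 in embryos 1 to 3 but -0.04 and 0.12 in embryos 4 and 5.

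Mrps35, also specific to mitochondria, had the highest fibroblast mean of the family, 0.57 ± 0.47 (SD, n = 5; adjusted p = 0.225). Its fibroblast values were 0.58, 1.05, 1.03, 0.13 and 0.08, so the mean rested on embryos 1 to 3, and its thymus mean was 0.05 ± 0.09. Mrps5, the counterpart of a bacterial protein of the decoding region, went against the family in thymus. It was at 0.11, 0.19, 0.08, 0.04 and 0.19 there (mean 0.12 ± 0.07, SD, n = 5; adjusted p = 0.586) and averaged 0.01 ± 0.08 in fibroblasts. Its 2 probes averaged 0.04 and 0.20 in thymus, and with the Cy5 arrays alone its mean turned to -0.06.

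Of the large subunit in thymus, the lowest members after Mrpl55 with one sign in all 5 embryos were Mrpl54 and Mrpl43, both specific to mitochondria, and Mrpl27, the counterpart of a bacterial protein beside the catalytic centre. Mrpl43 was at -0.24, -0.16, -0.09, -0.19 and -0.35 (mean -0.20 ± 0.10, SD, n = 5; adjusted p = 0.345). Mrpl27 was at -0.13, -0.12, -0.17, -0.28 and -0.21 (mean -0.18 ± 0.07; adjusted p = 0.343, the smallest of the family in thymus). Mrpl54 had the same mean as Mrpl43 but a wider spread (-0.20 ± 0.22), since embryos 2 and 4 stood at -0.33 and -0.54 and the others between -0.11 and -0.01.

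Of the large subunit in fibroblasts, Mrpl13, the counterpart of a bacterial protein of early ribosome assembly, was at 0.45, 0.74, 0.65, 0.21 and 0.06 (mean 0.42 ± 0.29, SD, n = 5; adjusted p = 0.191). Mrpl40, specific to mitochondria, was at 0.66, 0.41, 0.002, 0.17 and 0.31 (mean 0.31 ± 0.25; adjusted p = 0.229), and at -0.03, -0.04, -0.03, -0.15 and -0.17 in thymus. Its tissues did not overlap, and its difference of -0.39 did not pass (adjusted p = 0.127).

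A few members went the other way. Mrpl37, specific to mitochondria, had the highest difference, 0.44 (adjusted p = 0.436). Its thymus mean was 0.06 ± 0.15 and its fibroblast values were -0.07, -0.94, -1.16, 0.01 and 0.24, so that embryos 2 and 3, the highest for Mrps35, were here the lowest. All arrays of these embryos have AYX or AYY titles, so embryo and array series cannot be told apart there. Mrpl45, which ties the ribosome to the inner membrane, followed at 0.13 (adjusted p = 0.549) and Mrps5 at 0.11 (adjusted p = 0.42). Mrps12, a protein of the decoding centre that is named after its values were seen, had the widest spread in fibroblasts, with an SD of 0.79 that came from embryo 5 at -1.50 against 0.07 to 0.40 in the other 4.

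**Figure D4:**
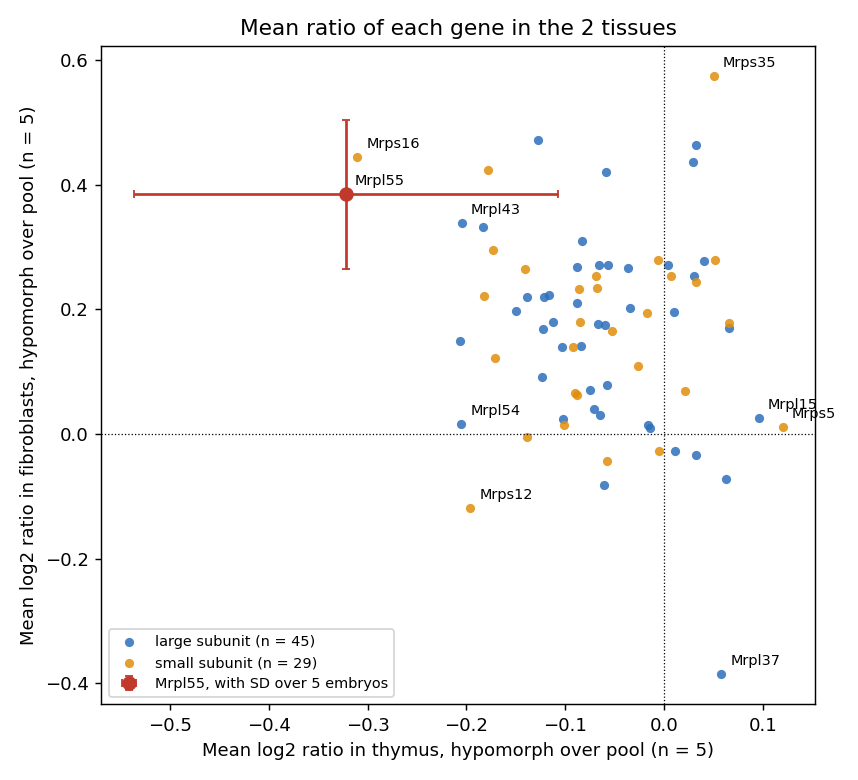
Mean log2 ratio of each of the 74 genes in thymus (horizontal axis) against fibroblasts (vertical axis), hypomorph over pool, n = 5 embryos each, large subunit in blue and small subunit in orange. Mrpl55 (red, bars are the SD over 5 embryos) and Mrps16 lie at the upper left, at -0.32 and -0.31 in thymus and 0.38 and 0.45 in fibroblasts.

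For 6 members the array carried 2 probes, and the probes often disagreed. Their means had opposite signs for 4 of the 6 in thymus and for all 6 in fibroblasts. The probes of Mrpl33 averaged -0.26 and 0.12 in thymus and 0.11 and -0.03 in fibroblasts. Those of Mrps6 averaged -0.15 and -0.03 in thymus and -0.19 and 0.32 in fibroblasts. Those of Mrpl15 averaged -0.04 and 0.23 in thymus, where embryo 5 brought the gene to 0.61. The probes of Mrpl47 averaged 0.03 and -0.15 in thymus, and those of Mrps33 averaged -0.11 and 0.10 there. Mrpl55 and Mrps16 had 1 probe each, so their values have no second probe beside them.

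Of 8 ribosome proteins that carry other or older names, 7 were measured, and none passed in either tissue or in the difference. Chchd1, a small subunit protein, was nearest to the family's pattern, at -0.02, -0.32, -0.07, -0.42 and -0.11 in thymus and 0.67, 0.53, 0.25, 0.08 and 0.33 in fibroblasts. Its difference was -0.56 (limma adjusted p = 0.0745), although with the Cy5 arrays alone its thymus mean was 0.06. Gadd45gip1, a large subunit protein at the exit of the nascent chain, was lowest in thymus, at -0.77 ± 0.35 (adjusted p = 0.167), with -0.38, -1.01, -1.10, -0.96 and -0.39. In fibroblasts it ranged from -0.75 in embryo 3 to 0.49 in embryo 1 (mean 0.03 ± 0.49). The GTP-binding protein Dap3 stayed close to the pools (-0.03 ± 0.07 in thymus and 0.02 ± 0.12 in fibroblasts). Ptcd3 averaged 0.01 ± 0.22 in thymus and 0.41 ± 0.52 in fibroblasts, where embryos 2 and 3 were at 1.04 and 0.85. Mrpl58, which can free stalled chains from the ribosome, averaged -0.09 ± 0.04 in thymus and 0.09 ± 0.14 in fibroblasts. Mrpl42 was at -0.07 ± 0.20 in thymus and 0.21 ± 0.23 in fibroblasts, and Mrpl57 at 0.03 ± 0.22 in thymus and 0.23 ± 0.30 in fibroblasts.

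The genes that build and serve the mitochondrial ribosome had medians closer to 0 than its proteins had. Assembly and ribosomal RNA modification factors had a median of 0.01 in thymus and 0.01 in fibroblasts (23 of 26 measured). Translation factors stood at 0.02 and 0.06 (13 of 15), mitochondrial aminoacyl-tRNA synthetases at 0.04 and 0.02 (19 of 20), genes of mitochondrial DNA transcription and maintenance at 0.03 and -0.02 (15 of 15) and the import machinery at -0.01 and -0.01 (12 of 12), each pair given as thymus and then fibroblasts. None of their genes passed in either tissue or in the difference. Trmt2b, a methyltransferase of mitochondrial RNA, was opposite to the family, at 0.08, 0.03, 0.27, 0.10 and 0.36 in thymus and -0.38, -0.26, -0.38, -0.06 and -0.23 in fibroblasts (difference 0.43, limma adjusted p = 0.0588). Other members with one sign in all 5 embryos of a tissue were small in size, such as Vars2 at 0.11 ± 0.08 and Nrf1 at 0.05 ± 0.03 in thymus, Timm17a, an import channel subunit, at -0.12 ± 0.05 in thymus, and Rars2 at 0.15 ± 0.16, Mars2 at -0.12 ± 0.06 and Polg2 at 0.10 ± 0.06 in fibroblasts.

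The nuclear-encoded subunits of the respiratory chain and ATP synthase, the partners of what this ribosome makes, did show the same split. Their median was -0.14 in thymus and 0.14 in fibroblasts (69 of 74 measured). Below the pool in thymus were 62 of 69 (89.9%, against 45.1% of all features), and above it in fibroblasts 60 of 69 (87.0%, against 49.1%). In thymus embryos 1 to 5 their median was -0.04, -0.25, -0.04, -0.31 and -0.10, lowest in embryos 2 and 4, whereas the ribosomal family was lowest in embryos 4 and 5. None of the 69 passed within a tissue. In the difference 1 passed, Ndufa13, a complex I subunit, which was at -0.19, -0.62, -0.26, -0.61 and -0.28 in thymus and 0.40, 0.19, 0.17, 0.19 and 0.01 in fibroblasts (difference -0.58, limma adjusted p = 0.0478). That call was lost, with an adjusted p of 0.0764 to 0.131, on leaving out any 1 thymus embryo or fibroblast embryo 1, 2 or 3, and was kept without fibroblast embryo 4 or 5 (0.0437 and 0.0435). It was also lost at equal spread of the arrays (0.0594), with the Cy5 arrays alone (0.134) or the Cy3 arrays alone (0.117), and in 5 other alternatives (0.0527 to 0.0814). At an unadjusted p under 0.05, 38 of the 69 were lower in thymus than in fibroblasts (55.1%, against 8.57% of all features) and 2, Uqcrc1 and Atp5b, were higher (2.9%, against 6.84%). Ndufa6, another complex I subunit, averaged 0.40 ± 0.26 in fibroblasts, and Uqcrc1, a core protein of complex III, -0.31 ± 0.20 (SD, n = 5 each).

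Cytosolic ribosomal proteins had the same median as the mitochondrial family in thymus, -0.07, and a smaller one in fibroblasts, 0.07 (69 of 76 measured). In thymus embryos 1 to 5 their median was 0.02, -0.34, 0.03, -0.07 and -0.05, so that embryo 2 stood apart and embryos 1 and 3 lay above the pool. Below the pool in thymus were 58 of 69 (84.1%, against 45.1% of all features), and above it in fibroblasts 53 of 69 (76.8%, against 49.1%). None passed in either tissue or in the difference. In thymus 4 of the 69 lay below the pool in all 5 embryos, a share of 5.8%, near the 4.84% of all features, against 24.3% of the mitochondrial family. In fibroblasts 11 of the 69 lay above the pool in all 5 embryos (15.9%, against 7.8% of all features and 24.3% of the mitochondrial family). The differences between these shares were not tested. Rpl23 was the highest with one sign in thymus (0.17 ± 0.12) and Rps27 the lowest (-0.28 ± 0.31), and Rpl36 was the highest in fibroblasts (0.45 ± 0.23).

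**Figure D5:**
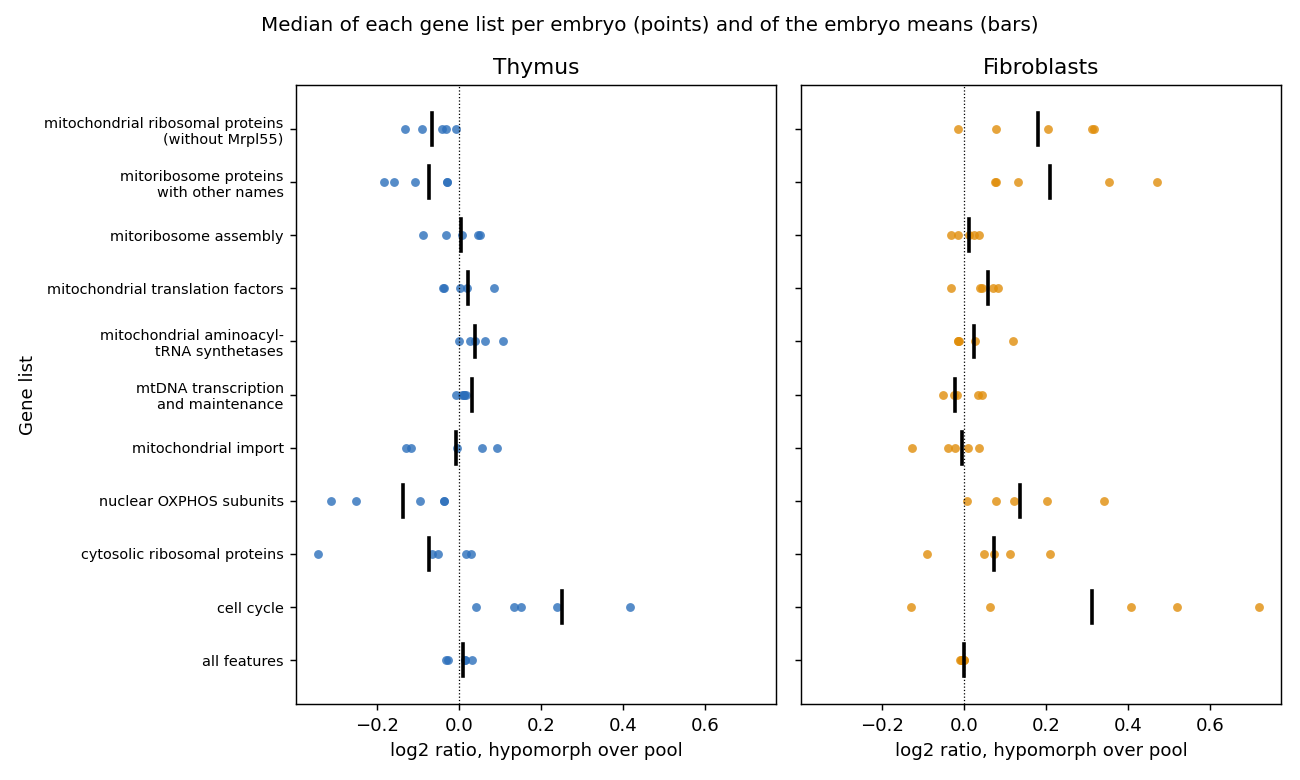
Median log2 ratio of hypomorph over pool (horizontal axis) of each gene list in each embryo (points) and over the embryo means (black bars), thymus left and fibroblasts right. The mitochondrial ribosomal proteins (-0.07 in thymus, 0.18 in fibroblasts) and the nuclear OXPHOS subunits (-0.14 and 0.14) lie on opposite sides of 0 in the tissues, and the assembly factors (0.01 and 0.01) do not.

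Adipose markers were split between the tissues in the same way. Of 5 adipose markers all 5 had a mean below the pool in thymus (against 45.1% of all features) and 4 above it in fibroblasts (against 49.1%). Their median ranged from -0.42 to -0.22 over thymus embryos and from 0.01 to 1.25 over fibroblast embryos, and none of the 5 passed. Of 11 cell cycle genes measured, 10 had a mean above the pool in thymus (against 54.9% of all features) and 10 in fibroblasts (against 49.1%). Their medians were 0.04 to 0.42 over thymus embryos. In fibroblast embryos 1 to 5 their medians were 0.52, 0.41, -0.13, 0.06 and 0.72, beside 0.32, 0.32, 0.21, 0.08 and -0.01 for the ribosomal family. Both were thus high in embryos 1 and 2 and low in embryo 4, and they differed in embryos 3 and 5. A relation between the 2 lists was not tested. Of 11 thymocyte markers 9 had a mean below the pool in thymus (against 45.1% of all features). Their median varied between -0.23 and 0.10 over thymus embryos without one sign. Cd3d, a chain of the T cell receptor complex, averaged -0.21 ± 0.04 in thymus and -0.04 ± 0.02 in fibroblasts, and Trat1, an adaptor of that receptor, -0.27 ± 0.09 in thymus and -0.01 ± 0.05 in fibroblasts (SD, n = 5 each). For both, every thymus embryo lay below the pool and below every fibroblast embryo, and neither passed. These were the 2 of 11 below the pool in all 5 thymus embryos (18.2%, against 4.84% of all features). Every thymus embryo lay below every fibroblast embryo for 2.04% of all features. Ptcra, of the same list, went the other way, at 0.11 ± 0.06 in thymus and above the pool in all 5 embryos (9.09% of the list, against 3.53% of all features). Over thymus embryos Rag1 ranged from -0.86 to 0.74, Dntt from -1.82 to 0.62 and Cd8a from -0.32 to 0.51.

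Some fibroblast and myeloid markers lay on the family's side in thymus as well. Of 7 fibroblast markers 5 had a mean below the pool there, against 45.1% of all features. Col1a2, Col3a1 and Postn, which encode matrix proteins, were below it in all 5 embryos (42.9% of the list, against 4.84% of all features). They averaged -0.37 ± 0.29, -0.30 ± 0.28 and -0.42 ± 0.25 (SD, n = 5). The others were close to the pool or above it, Col1a1 at -0.01, Pdgfrb at -0.02, Thy1 at 0.07 and Vim at 0.07. Of 6 myeloid markers 4 had a mean below the pool, against 45.1% of all features. The granule genes Ltf and S100a8 were below it in all 5 embryos (33.3% of the list, against 4.84% of all features), at -0.23 ± 0.10 and -0.46 ± 0.38 (SD, n = 5). Lyz2 averaged -0.09 and Cd68 -0.03, and Itgam (0.03) and Adgre1 (0.002) were not below the pool. The medians of the fibroblast list ranged from -0.30 to 0.11 over thymus embryos and from -0.22 to 0.05 over fibroblast embryos, and those of the myeloid list from -0.25 to -0.02 and from -0.09 to 0.03. At an unadjusted p under 0.05, Col1a2, Col3a1, Lyz2, Ltf and S100a8 were lower in thymus than in fibroblasts, as were 8.57% of all features. None of these markers passed after adjustment. Ratios give no summed level for these markers, and their part in the family's values was not tested.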

How the data were processed

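RNA of hypomorphic thymus or fibroblasts and wild-type pool RNA of that tissue were hybridised together on 38 2-colour arrays of 25344 spots and 48 print blocks. Per the series' design text an Agilent scanner read the slides and the submitters excluded 2 thymus arrays. The deposited values are log2 ratios, 1 per spot and array. How the spots were extracted, background-corrected and normalized was not given in the sources used here. Array medians lay between -0.887 and 1.14, so the deposited log2 table had not been centred, and each array was centred on its median. Values at the bound of 16.61 were treated as missing. Of the spots, 147 to 423 per array had no value. No intensities were analysed here, so signal over background is unknown, and the number of arrays and embryos limits the precision.

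Probes were named from the platform annotation: 21111 had 1 symbol, of which 3974 were updated through the RefSeq gene table and 68 matched nothing and were kept, and 4233 had none. Probes of a symbol were averaged. Per embryo, its Cy5 mean and its Cy3 mean were averaged with equal weight. The embryo is the replicate, its arrays being technical repeats, and the pool is 1 control sample whose own spread is not in the tests. Ratios were tested against 0 over 5 embryos per tissue, and the tissue difference (thymus minus fibroblasts) over all 10, by lmFit with eBayes (R 4.3.3, limma 3.58.1, two-sided, Benjamini-Hochberg over all features with a value in all 5 embryos). The code was tested on simulated data.

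The members and gene lists were chosen with earlier results of these data known. Named genes were Mrpl55, members that passed, the 4 highest and 4 lowest means with one sign per tissue, the 3 highest and 3 lowest differences, members with 2 probes, ribosome proteins with other names, the 3 nearest measured genes on each side of Mrpl55, and from each other list the genes that passed or, failing that, the highest and lowest with one sign. Mrps24 and Mrps12 were named after their values were seen. Mrpl42 was added to the proteins with other names because its platform symbol is older. Alternatives covered centring, scaling, each dye orientation, bounds, weights, single arrays, missing values, doubtful arrays, probes, print position, the embryo number as a block and leaving out each embryo.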

Additional observations from a re-analysis of the deposited data

Results flagged for a closer look

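Among the members and the other genes named by rule, for 7 every embryo of one tissue lay on one side of the wild-type pool and every embryo of the other tissue on the opposite side. Mrpl55 averaged -0.32 in thymus and 0.38 in fibroblasts, and the difference of -0.71 passed (limma adjusted p = 0.032). Ndufa13, a subunit of respiratory complex I, averaged -0.39 in thymus and 0.19 in fibroblasts, and its difference of -0.58 passed (adjusted p = 0.0478). The same opposition without a passing difference was seen for Mrps24 (-0.41, adjusted p = 0.0529), Mrps16 (-0.76, adjusted p = 0.0804), Chchd1 (-0.56, adjusted p = 0.0745) and Mrpl40 (-0.39, adjusted p = 0.127). It ran the other way for Trmt2b, which averaged 0.17 in thymus and -0.26 in fibroblasts (difference 0.43, adjusted p = 0.0588). Trmt2b and Ndufa13 were named partly for having one sign in every embryo of a tissue. The 7 can therefore not be compared with a share of all features. Of the 74 members, taken by their symbol, 4 (5.41%) lay below the pool in all thymus embryos and above it in all fibroblast embryos. Over all features that share was 0.618%. The reverse held for no member and for 0.398% of all features.

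In 10 of the 148 sets of 5 embryo values of the 74 members, 1 embryo lay far from the other 4, by a gap that chance gives in about 5% of sets. In thymus embryo 5, which had 2 arrays, stood apart and high for Mrpl15 at 0.61 (others -0.07 to 0.01), Mrpl21 at 0.33 (-0.08 to -0.03) and Mrps18a at 0.10 (-0.08 to -0.03). Thymus embryo 4 was low for Mrpl20 at -0.43 (-0.13 to -0.01), Mrpl32 at -0.21 (-0.11 to -0.07) and Mrpl4 at -0.12. Thymus embryo 2 was high for Mrpl39 at 0.19 (-0.04 to 0.01) and low for Mrps21 at -0.55 (-0.11 to 0.02). In fibroblasts embryo 5 was low for Mrps12 at -1.50 (0.07 to 0.40), and embryo 4 was high for Mrps23 at 0.18 (-0.13 to -0.05).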

How the results depend on the processing

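The family median kept its sign under all alternatives run. It was -0.12 to -0.02 in thymus, with -0.02 where only arrays that had the hypomorph in Cy5 were used, and 0.13 to 0.25 in fibroblasts. Without the doubtful array, without 3 fibroblast arrays (an alternative chosen after seeing the data, as were print blocks, print neighbourhood and the median without Mrpl55) and without Mrpl55 it was 0.20, 0.21 and 0.18 in fibroblasts. The 2 planned rules for doubtful arrays chose the same array. Mrpl55 in thymus minus fibroblasts lost its call at -0.70 as deposited, at -0.64 with Cy5 alone and at -0.71 with the replicate block, and leaving out 1 embryo gave -0.76 to -0.63. In fibroblasts Mrpl55 gained a call at 0.43 with Cy5 alone, 0.34 with Cy3 alone, 0.38 with single arrays and the embryo as a random block, and 0.43 without array 4 of embryo 4. Of all features 28.4%, 36.8%, 9.58% and 0.378% passed in these settings, in that order. In thymus Mrpl55 gained a call at -0.43 with Cy3 alone and at -0.30 with single arrays, where 23.8% and 1.88% of all features passed. The embryo numbers name different embryos of different ages, and the deviations of same-numbered embryos correlated at -0.0353 to 0.0884, so they share only a number. With the replicate block 1 feature passed in the difference and Mrpl55 had an adjusted p of 0.0682.

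The number of features passing in thymus was 5, and it was 1 as deposited, 13 with arrays scaled to equal spread (9 of them higher), 4881 with Cy5 alone, 5244 with Cy3 alone, 250 with embryo weights, 413 with single arrays, 9 without the arrays lacking a genotype, 9 with 1 probe per gene and 0 to 4 without 1 embryo. In fibroblasts it was 1, and it was 8 as deposited (3 of them higher), 2 at equal spread, 6298 with Cy5 alone, 8145 with Cy3 alone, 0 with bounds kept, 2110 with single arrays, 0 with a value in at least 3 embryos, 83 without array 4 of embryo 4, 0 with the print neighbourhood removed, 7 without 3 arrays and 0 to 38 without 1 embryo. In the difference it was 90, and it was 17 as deposited, 0 with Cy5 alone, 285 with Cy3 alone, 787 with weights, 1589 with single arrays, 291 without array 4 of embryo 4, 1 with the block and 1 to 374 without 1 embryo. A single dye orientation leaves the dye effect in the ratio. With single arrays 28 of the 74 members passed in fibroblasts, all higher, where 9.58% of all features passed. In the difference 25 of the 74 passed with single arrays, all lower, where 7.27% of all features passed. Arrays of an embryo are technical repeats there. With embryo weights 10 of the 74 members passed in the difference, all lower, where 3.6% of all features passed.

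Values of single named genes kept their direction and their side of the threshold in 1199 comparisons, gained a call in 60, lost one in 16, all of them Ndufa13 in the difference, and turned sign in 78, and the cause of these turns was not tested. With Cy5 alone the thymus means turned to 0.21 for Arf1, 0.06 for Chchd1, 0.06 for Dap3, 0.06 for Mrpl42, -0.01 for Mrpl57, 0.03 for Mrpl58, -0.06 for Mrps5, -0.03 for Ptcd3, -0.17 for Vars2, 0.14 for Mrps24, -0.30 for Mrpl15 and 0.01 for Mrpl33, and the fibroblast means to -0.12 for Mrpl15, -0.10 for Mrps5, -0.62 for 2310033P09Rik and 0.02 for 2610507I01Rik. With Cy3 alone the thymus means turned to 0.05 for 2310033P09Rik, -0.26 for Guk1, 0.21 for Iba57, -0.12 for Nrf1, 0.02 for Timm17a, 0.08 for Wnt3a, 0.03 for Mrpl47 and 0.12 for Mrps33, and the fibroblast means to -0.03 for Arf1, -0.17 for Dap3, -0.03 for Gadd45gip1, -0.20 for Guk1, 0.03 for Mars2, -0.01 for Mrpl58, 0.07 for Wnt3a, 0.02 for Mrps33 and -0.16 for Mrps6. Guk1 in thymus, 0.002, was -0.01 at equal spread, with single arrays and with print blocks centred, and -0.02 without the arrays lacking a genotype and with the print neighbourhood removed. In fibroblasts 2310033P09Rik was -0.03 with single arrays and -0.001 with the neighbourhood removed, Gadd45gip1 was -0.02 at equal spread and -0.04 with the neighbourhood removed, and Mrpl58 was -0.06 with the neighbourhood removed. Mrps5 was -0.004 in fibroblasts with the neighbourhood removed, and without 3 arrays Mrpl33 was -0.02 and Mrps33 0.001. With 1 probe per gene, fibroblast means turned to -0.02 for Mrpl47, -0.02 for Mrps5 and -0.19 for Mrps6, and thymus means to 0.03 for Mrpl47 and 0.10 for Mrps33. Mrps33 in thymus was 0.02 as deposited and 0.01 at equal spread, with embryo weights and without the arrays lacking a genotype. With embryo weights Mrpl42 was 0.01 and Ptcd3 -0.06 in thymus. Without 1 embryo, fibroblast means ranged from -0.06 to 0.16 for 2310033P09Rik, -0.01 to 0.06 for Dap3, -0.09 to 0.22 for Gadd45gip1, -0.25 to 0.23 for Mrps12, -0.01 to 0.04 for Mrps5 and -0.11 to 0.16 for Mrps6, and thymus means from -0.02 to 0.02 for Guk1, -0.12 to 0.003 for Mrpl42, -0.03 to 0.10 for Mrpl57, -0.07 to 0.06 for Ptcd3, -0.03 to 0.14 for Mrpl15, -0.02 to 0.02 for Mrps33 and -0.21 to 0.06 for Wnt3a.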
